A study of Arabidopsis thaliana with 67 samples.

Results

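The genes described here encode enzymes and regulators of the Calvin cycle in Arabidopsis thaliana, and they are 10 of the 60886 features (29696 of them gene rows) counted in 67 RNA libraries. They were chosen by name: Rubisco activase (RCA, AT2G39730), the glyceraldehyde-3-phosphate dehydrogenase subunits GAPA (AT3G26650), GAPA2 (AT1G12900) and GAPB (AT1G42970), the small regulator CP12-2 (AT3G62410), the aldolases FBA1 (AT2G21330) and FBA2 (AT4G38970), the chloroplast fructose-1,6-bisphosphatase AT3G54050 (written cpFBPase below), sedoheptulose-1,7-bisphosphatase (SBPASE, AT3G55800) and phosphoribulokinase (PRK, AT1G32060). All 10 are nuclear genes, and all 10 were found in the table.

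The Calvin cycle runs in the chloroplast stroma and fixes carbon dioxide with the enzyme Rubisco, using ATP and NADPH made by the light reactions. Rubisco activase removes inhibitory sugar phosphates from Rubisco. The dehydrogenase reduces the fixed carbon to triose phosphate, and the aldolases, both bisphosphatases and phosphoribulokinase rebuild the acceptor ribulose-1,5-bisphosphate. CP12 proteins bind the dehydrogenase and phosphoribulokinase into an inactive complex in the dark, which thioredoxin releases in the light. In leaves these genes are strongly expressed, and light, sugars and the circadian clock are known to regulate many of them.

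All plants were of the ecotype Col-0, and the genotypes were the wild type (wt), ago5, ago9 and ago59, the last taken to be the double mutant of ago5 and ago9; AGO5 and AGO9 are ARGONAUTE proteins, which bind small RNAs. Seedling libraries came from shoot apices taken at 7 days, with 16 h of light and 8 h of dark, from 100 sorted nuclei each by Smart-seq3. Nuclei labelled cherry are the stem group (5 wt, 8 ago5, 7 ago9 and 7 ago59 libraries), and nuclei labelled dapi are the nonstem group (3, 3, 4 and 3 libraries). Pollen from plants of 35 days gave sperm libraries (3 for each genotype) and vegetative libraries (4, 3, 4 and 4), by Smart-seq2 from 2 ng of RNA. What drives the cherry reporter and which mutant alleles were used are not given in the sources used here, and nothing in the labels says that replicates came from separate plants, so p-values measure the spread between labelled replicates. The RNA is labelled nuclear, and a lower value in such a bulk library can mean fewer expressing nuclei or less RNA in each, which cannot be told apart.

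The stretch upstream of a gene holds sites through which light and the clock are known to act, so the 250 bases before the annotated start (RefSeq, TAIR10.1) are shown for RCA and CP12-2, which have the most negative log2 changes from wt in stem nuclei of each mutant below, and for GAPA and GAPB, which encode subunits of the same enzyme. They lie at chr2:16573693-16573942 on the minus strand (RCA), chr3:23090694-23090943 on the plus strand (CP12-2), chr3:9794612-9794861 on the plus strand (GAPA) and chr1:16127103-16127352 on the plus strand (GAPB). Capitals mark motif matches.
RCA: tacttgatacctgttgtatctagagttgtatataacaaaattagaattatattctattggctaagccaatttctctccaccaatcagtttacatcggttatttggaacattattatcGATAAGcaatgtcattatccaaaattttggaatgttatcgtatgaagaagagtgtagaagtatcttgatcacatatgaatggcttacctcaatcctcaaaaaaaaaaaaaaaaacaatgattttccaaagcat
CP12-2: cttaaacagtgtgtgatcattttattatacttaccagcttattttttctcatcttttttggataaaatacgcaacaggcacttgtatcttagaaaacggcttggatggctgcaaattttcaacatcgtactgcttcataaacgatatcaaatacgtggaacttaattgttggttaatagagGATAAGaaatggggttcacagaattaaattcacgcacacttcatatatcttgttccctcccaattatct
GAPA: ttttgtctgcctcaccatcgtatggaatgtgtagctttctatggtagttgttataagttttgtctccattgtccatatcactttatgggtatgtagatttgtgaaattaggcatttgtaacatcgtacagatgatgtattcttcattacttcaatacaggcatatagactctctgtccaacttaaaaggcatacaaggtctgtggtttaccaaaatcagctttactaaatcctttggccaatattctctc
GAPB: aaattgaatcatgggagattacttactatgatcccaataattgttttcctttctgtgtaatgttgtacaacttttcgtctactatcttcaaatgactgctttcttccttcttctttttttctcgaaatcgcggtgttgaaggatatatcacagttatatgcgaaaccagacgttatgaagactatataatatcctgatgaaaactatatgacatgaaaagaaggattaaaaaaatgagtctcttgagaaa
5 short motifs were searched on both strands of these 250 bases in all 10 genes and in 27443 genes of the annotation. The I-box core GATAAG, known from light-regulated plant promoters, was in 3 of 10 (RCA, 133 bases before the start, CP12-2, 69 bases before it, and cpFBPase) against 12.3% of all genes. The G-box CACGTG was in 2 of 10 (PRK and cpFBPase) against 6.49%, and the TATA box TATAAA was in 4 of 10 (cpFBPase, SBPASE, FBA1 and FBA2) against 47.3%. The evening element AAAATATCT and the CCA1-binding site AAAAATCT, both known from clock-regulated genes, were in 0 of 10, against 2.36% and 6.69%. A match only describes the letters. The GAPA and GAPB sequences hold none of the 5 motifs, nor does that of GAPA2. AT3G26640, a gene on the same strand, overlaps GAPA, and how much of the GAPA stretch lies within it is not given here.

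In units of 1000000 counts, stem libraries held 1.41 to 5.75, nonstem libraries 2.14 to 6.24, sperm libraries 7.16 to 9.49 and vegetative libraries 7.69 to 10.193. Of all counts, 20.1% to 36.0% in stem and 18.6% to 30.1% in nonstem libraries fell on organelle and ribosomal RNA genes. The shoot meristem genes CLV3, WUS, STM and KNAT1 were all 4 called higher in stem than in nonstem libraries over the genotypes, by 1.81 (KNAT1) to 7.79 (CLV3) on the log2 scale. Of all 20753 features tested, 4.06% were called higher. CLV3 and WUS had too few counts for the fits of nonstem nuclei alone. They entered this test through the stem libraries, so their calls are no separate support for a difference. In stem libraries AGO9 was at 86.6 ± 40.2 CPM (counts per 1000000 of a library's total, mean ± SD, n = 5) in wt and at 11.9 ± 14.8 CPM (n = 7) in ago9 and 13.0 ± 9.61 CPM (n = 7) in ago59. AGO5 was at 15.1 ± 11.7 CPM (n = 5) in wt and 12.1 ± 10.8 CPM (n = 8) in ago5, so in the seedling the ago5 label could not be checked on its own gene, and directions for ago5 rest on the label. In sperm AGO5 was at 41.4 CPM in wt and at 2.30 and 3.03 CPM in ago5 and ago59 (group means, n = 3 each).

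In wild-type seedlings RCA gave the most RNA per length and cpFBPase the least. Per kilobase of exon, RCA was at 1644 ± 99.7 CPM in stem nuclei (n = 5) and 2183 ± 38.3 CPM in nonstem nuclei (n = 3). In stem nuclei GAPA (638 ± 51.4 CPM per kilobase), GAPA2 (617 ± 123), GAPB (519.6 ± 102), FBA2 (495 ± 107) and CP12-2 (395 ± 69.8) followed, and no neighbours among these 5 differed by more than their SDs. FBA1 (265 ± 27.5), PRK (220.3 ± 32.9) and SBPASE (176 ± 32.4) came next, again with neighbours within their SDs, and cpFBPase stood last at 86.2 ± 23.0. In nonstem nuclei the order was the same from FBA2 down, and GAPA2, at 877 ± 53.1 CPM per kilobase, stood above GAPA (717 ± 44.8) and GAPB (664 ± 39.2), with GAPA, GAPB and FBA2 (608 ± 50.2) within the SDs of their neighbours. Together the 10 genes took 0.512% to 1.03% of all counts in stem and 0.814% to 1.203% in nonstem libraries.

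**Figure D1:**
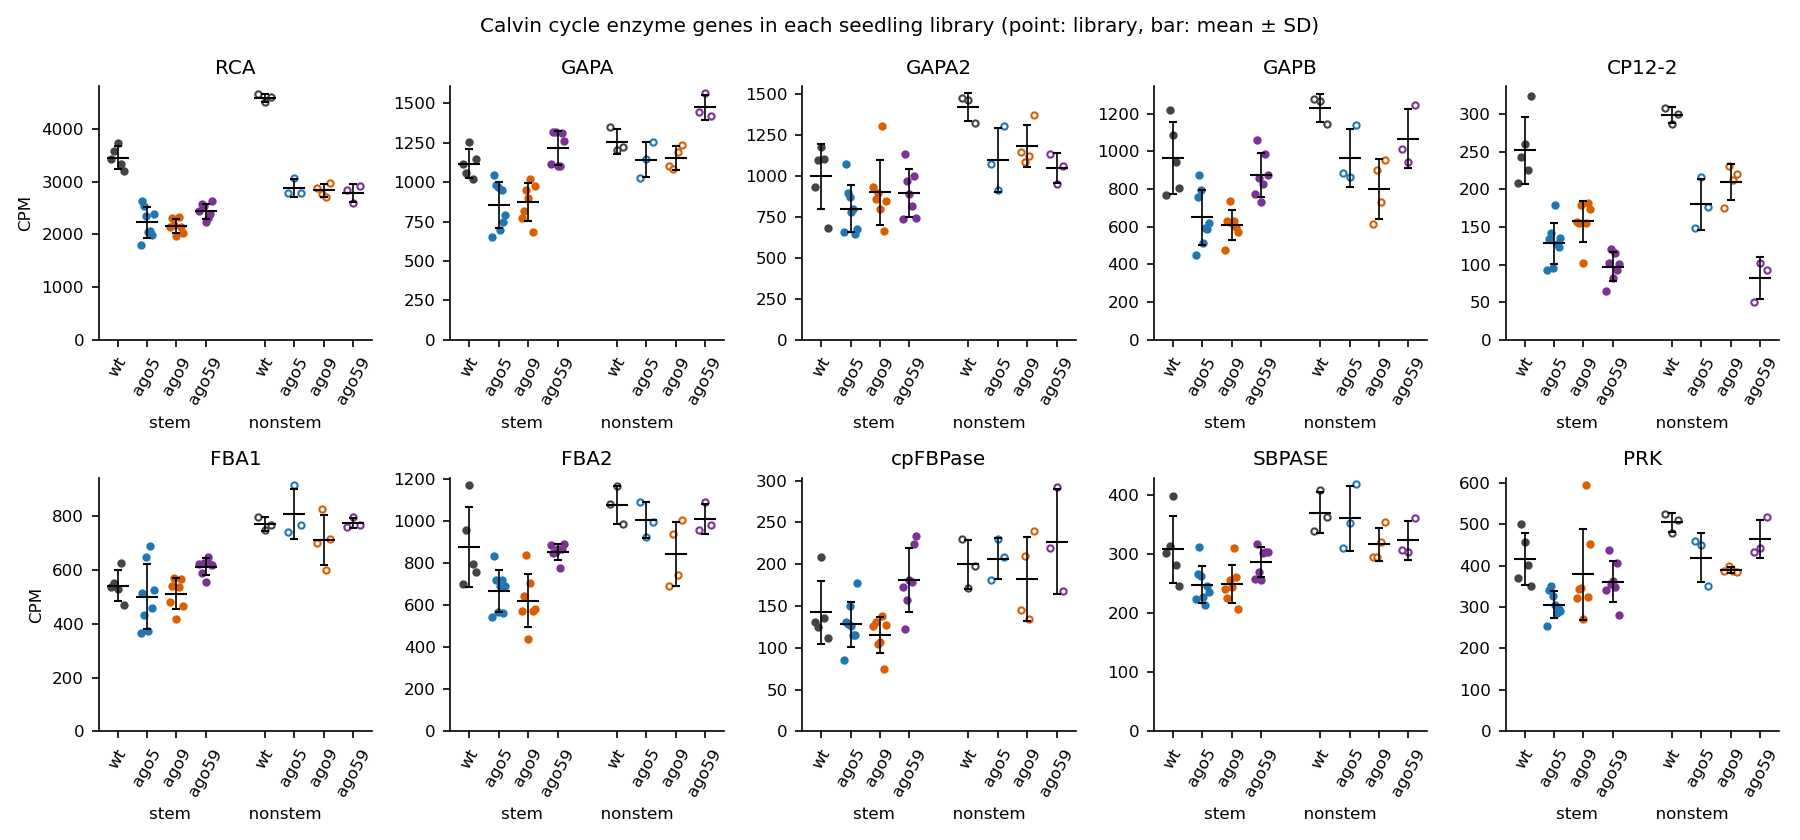
Level of each of the 10 genes (y axis, CPM) in every stem (filled) and nonstem (open) library, by genotype on the x axis, with the mean and SD of each group. RCA is lower in every mutant library than in any wt library of the same population, and CP12-2 is lowest in ago59.

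All 10 genes were detected in the stem nuclei, and 9 of them were lower there than in the nonstem nuclei over the genotypes. The mean CPM in stem was lower in 39 of 40 pairs of gene and genotype, and the exception was CP12-2 in ago59 (97.1 against 82.0 CPM). These pairs share genes and libraries, so they are not 40 separate observations, and the share over all features was not counted. Averaged over the 4 genotypes, 9 of 10 genes were called lower in stem (edgeR's quasi-likelihood test, with p adjusted over all features by Benjamini-Hochberg, as for every adjusted p in the text, and called at under 0.05), where 2.87% of all 20753 tested features were lower and 4.06% higher. The log2 difference was -0.53 ± 0.11 for cpFBPase (± SE, adjusted p = 0.000651), -0.50 ± 0.07 for FBA1 (adjusted p = 3.25e-06) and -0.40 ± 0.07 for GAPB (adjusted p = 0.000211). The other 6 called genes ranged from -0.39 (GAPA2) to -0.28 (PRK, whose call was lost without the low-count filter, adjusted p = 0.0617), and CP12-2 stood at -0.21 ± 0.10 (adjusted p = 0.236). The median log2 difference of the 10 genes was -0.36, against 0.06 for all features.

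In the wild type alone the same comparison called 0 of 10 genes, with 0.181% of 17155 features called. All 10 log2 differences were below 0, from -0.14 (GAPA) to -0.49 (GAPA2), with a median of -0.31 against 0.01 for all features. An unadjusted p under 0.05 was reached by 5 genes (RCA, GAPA2, GAPB, cpFBPase and FBA1) and by 1274 features in all. A DESeq2 Wald test, which called 218 features, called RCA (adjusted p = 0.0284), as did the edgeR fit without organelle and ribosomal RNA genes (adjusted p = 0.0339).

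**Figure D2:**
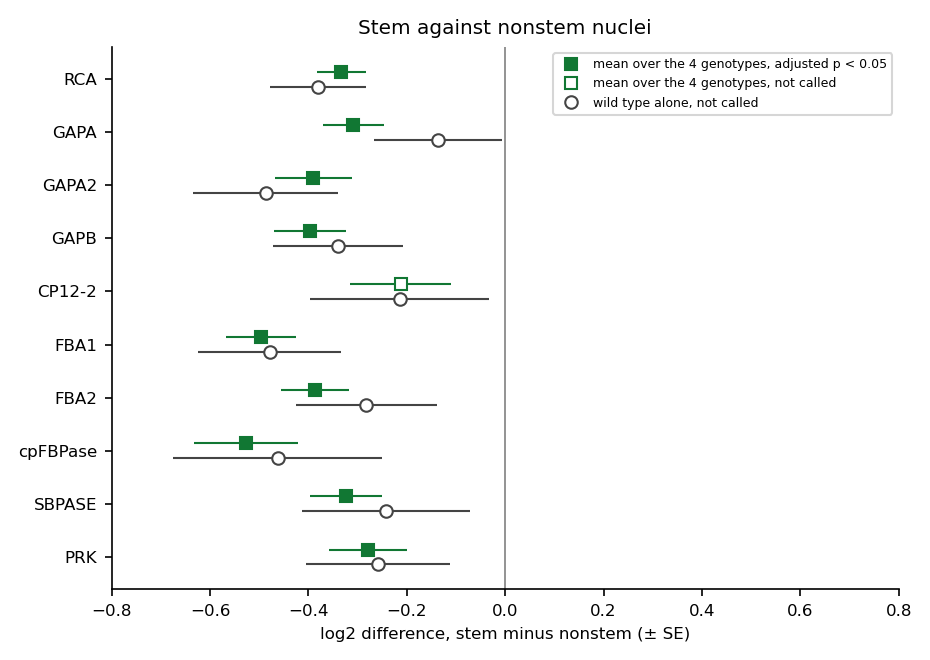
Log2 difference between stem and nonstem nuclei (x axis, ± SE) for each gene (y axis), averaged over the 4 genotypes (squares, filled where called) and in the wild type alone (circles). Every value lies below 0, and CP12-2 alone among the averaged values is not called.

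The genotype comparisons ask whether loss of either ARGONAUTE, or of both, changed these genes. In stem nuclei 6 of 10 genes fell in ago5 (RCA, CP12-2, GAPB, GAPA, FBA2 and PRK), where 0.88% of 18633 features were lower and 0.451% higher. In ago9, 5 of 10 fell (the same genes without PRK), where 0.435% were lower and 0.236% higher. In ago59, 2 of 10 fell (CP12-2 and RCA), where 1.96% were lower and 0.977% higher, and no gene rose in any of the 3. The median log2 change of the 10 genes was -0.52 in ago5, -0.48 in ago9 and -0.26 in ago59, against 0.04, 0.01 and 0.03 for all features. The 3 comparisons share their 5 wild-type libraries, so a high or low wild-type library would move all of them.

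These changes are relative to TMM scaling, which aligns the bulk of features between libraries. Scaled by library totals alone, the median change of all features was 0.16 in ago5, 0.15 in ago9 and 0.17 in ago59 (0.13, 0.16 and 0.13 in nonstem nuclei), so the changes of the 10 genes were less negative by about that shift. With that scaling the calls for PRK, GAPA and FBA2 in ago5 and for GAPA, CP12-2 and FBA2 in ago9 were lost, leaving 3 and 2 of 10, while both calls in ago59 were made; of all 18633 features that scaling called 249 in ago5, 94 in ago9 and 525 in ago59. RCA and GAPB in both single mutants and CP12-2 in ago5 were called with either scaling.

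RCA, which keeps Rubisco active, fell in all 3 genotypes. Its level in stem nuclei was 3207, 3420.4 and 3735 CPM (lowest, median and highest library, n = 5) in wt, 1792, 2212 and 2639.6 (n = 8) in ago5, 1972, 2146 and 2322 (n = 7) in ago9, and 2226, 2435 and 2623 (n = 7) in ago59. Every mutant library was below every wild-type library. The log2 changes were -0.76 ± 0.09 (adjusted p = 5.68e-07), -0.82 ± 0.09 (adjusted p = 3.95e-07) and -0.64 ± 0.09 (adjusted p = 9.19e-06), and the mean CPM differed from wt by -35.6%, -37.6% and -29.4%. A gene on the opposite strand, AT2G39725, overlaps RCA, and reads of the 2 cannot be told apart where counting did not use strand. PRK and cpFBPase likewise overlap genes on the opposite strand (AT1G32070 and AT3G54060).

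CP12-2, which shuts down the dehydrogenase and phosphoribulokinase in the dark, had the most negative change in ago59. It was at 208, 243 and 324 CPM in wt, 92.3, 131 and 179 in ago5, 102, 156 and 183 in ago9, and 65.5, 101 and 121 in ago59 (lowest, median and highest, n = 5, 8, 7 and 7). The mutant ranges did not overlap the wild-type range. The log2 change was -1.10 ± 0.17 in ago5 (adjusted p = 0.000151), -0.82 ± 0.18 in ago9 (adjusted p = 0.0153) and -1.52 ± 0.18 in ago59 (adjusted p = 4.53e-07), and the mean CPM differed from wt by -48.9%, -37.3% and -61.5%. The ago9 call was lost without wild-type replicate 8 (adjusted p = 0.0957) and without the low-count filter (adjusted p = 0.0511). The other 2 calls were made in every fit that left out 1 library.

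Of the dehydrogenase subunits, GAPA and GAPB fell in both single mutants and neither was called in ago59. GAPB, the subunit with the regulatory tail, was at 768, 944 and 1216 CPM in wt, 449, 606 and 875 in ago5, 478, 619.6 and 736 in ago9, and 729, 860.4 and 1062 in ago59 (lowest, median and highest). The ago9 libraries all lay below the wild type, while ago5 and ago59 overlapped it. GAPB fell in ago5 (-0.69 ± 0.13, adjusted p = 0.00128) and ago9 (-0.79 ± 0.13, adjusted p = 0.000559), and stood at -0.27 ± 0.13 in ago59 (adjusted p = 0.387).

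GAPA was at 1019.9, 1111 and 1253 CPM in wt, 654, 869.8 and 1043 in ago5, 683, 898 and 1019 in ago9, and 1099, 1258 and 1318 in ago59. The ago9 libraries lay below the wild type, and those of ago5 did in 7 of 8 cases. GAPA fell in ago5 (-0.52 ± 0.11, adjusted p = 0.00709) and ago9 (-0.51 ± 0.12, adjusted p = 0.0236). Both calls were lost in an edgeR fit with the replicate number as a block (adjusted p = 0.0522 and 0.0826). The ago9 call was lost in 5 of 12 fits that left out 1 library (wt replicates 3, 5 and 8, ago9 replicates 1 and 7, adjusted p 0.053 to 0.0786). In ago59 the log2 change was -0.02 ± 0.12 (adjusted p = 0.971), and it was 0.12 with library totals alone, so GAPA has no direction there. A gene on the same strand, AT3G26640, overlaps GAPA, and strand cannot tell their reads apart where they overlap.

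GAPA2, the close copy of GAPA, was not called by edgeR in any of the 3 genotypes, and a DESeq2 Wald test called it in ago5 (adjusted p = 0.0323). It was at 681, 1096 and 1177 CPM in wt, 647, 787 and 1072 in ago5, 666, 857 and 1301 in ago9, and 738, 888 and 1133 in ago59. All 4 ranges overlapped. Its log2 changes were -0.44 ± 0.14 (adjusted p = 0.13), -0.29 ± 0.15 (adjusted p = 0.641) and -0.29 ± 0.15 (adjusted p = 0.423). The transcripts of GAPA and GAPA2 are 85.8% identical where they align, but share no run over 29 bases, and the table gives no sign of how reads that fit both were split.

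Of the aldolases, which join dihydroxyacetone phosphate to another sugar phosphate to give fructose or sedoheptulose bisphosphate, FBA2 fell in both single mutants and FBA1 was not called. FBA2 was at 702, 793 and 1169 CPM in wt, 542, 690.4 and 832 in ago5, 439, 579.7 and 836 in ago9, and 776, 865 and 889 in ago59. The ranges overlapped in all 3 comparisons. The log2 change was -0.51 ± 0.12 in ago5 (adjusted p = 0.022), -0.63 ± 0.13 in ago9 (adjusted p = 0.00681) and -0.17 ± 0.13 in ago59 (adjusted p = 0.713). Wild-type replicate 5 was the highest at 1169 CPM, and without it neither call was made (adjusted p = 0.158 in ago5 and 0.0574 in ago9). The ago5 call was also lost without ago5 replicate 8 (adjusted p = 0.0501) and in a fit of the compared groups alone (adjusted p = 0.071).

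FBA1 had mean levels of 542 ± 56.2 CPM in wt, 502 ± 119 in ago5, 511 ± 57.3 in ago9 and 612 ± 30.9 in ago59. Against wt it changed by -0.25 ± 0.13, -0.23 ± 0.13 and 0.03 ± 0.14 (log2), at adjusted p of 0.498, 0.739 and 0.969. FBA1 and FBA2 transcripts are 84.8% identical where they align, with no shared run over 35 bases.

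Neither bisphosphatase was called in a mutant. SBPASE, which removes a phosphate from sedoheptulose-1,7-bisphosphate, was at 246, 302 and 399 CPM in wt, 214, 241 and 312 in ago5, 208, 244 and 311 in ago9, and 256, 302 and 318 in ago59. Its log2 changes were -0.43 ± 0.13 (adjusted p = 0.0949), -0.45 ± 0.13 (adjusted p = 0.149) and -0.24 ± 0.13 (adjusted p = 0.501), and a DESeq2 Wald test, which called 515 and 316 of all features in ago5 and ago9, called it in both (adjusted p = 0.00742 and 0.00896). cpFBPase was the weakest gene at 112, 131 and 208 CPM in wt, 84.9, 127 and 177 in ago5, 74.2, 126 and 138 in ago9, and 123, 179 and 233 in ago59. Its log2 changes were -0.28 ± 0.19, -0.44 ± 0.19 and 0.20 ± 0.19 (adjusted p = 0.661, 0.495 and 0.789), so its fitted value was positive in ago59 and negative in the single mutants, none of them called.

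PRK, which makes the acceptor that Rubisco uses, was called in ago5. It was at 351, 402 and 501 CPM in wt, 254, 299 and 351 in ago5, 271, 343 and 595 in ago9, and 280.5, 355 and 438 in ago59. All 8 ago5 libraries lay below the lowest wild-type library, by the narrowest margin (350.62 against 350.66 CPM), whereas ago9 and ago59 overlapped it. The log2 change in ago5 was -0.57 ± 0.14 (adjusted p = 0.0326). That call was lost without the low-count filter (adjusted p = 0.07) and in 7 of 13 fits that left out 1 library (wt replicates 3, 4, 5 and 7, ago5 replicates 1, 7 and 8, adjusted p 0.0535 to 0.0948). In ago9 and ago59 the changes were -0.27 ± 0.15 (adjusted p = 0.696) and -0.34 ± 0.15 (adjusted p = 0.313).

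**Figure D3:**
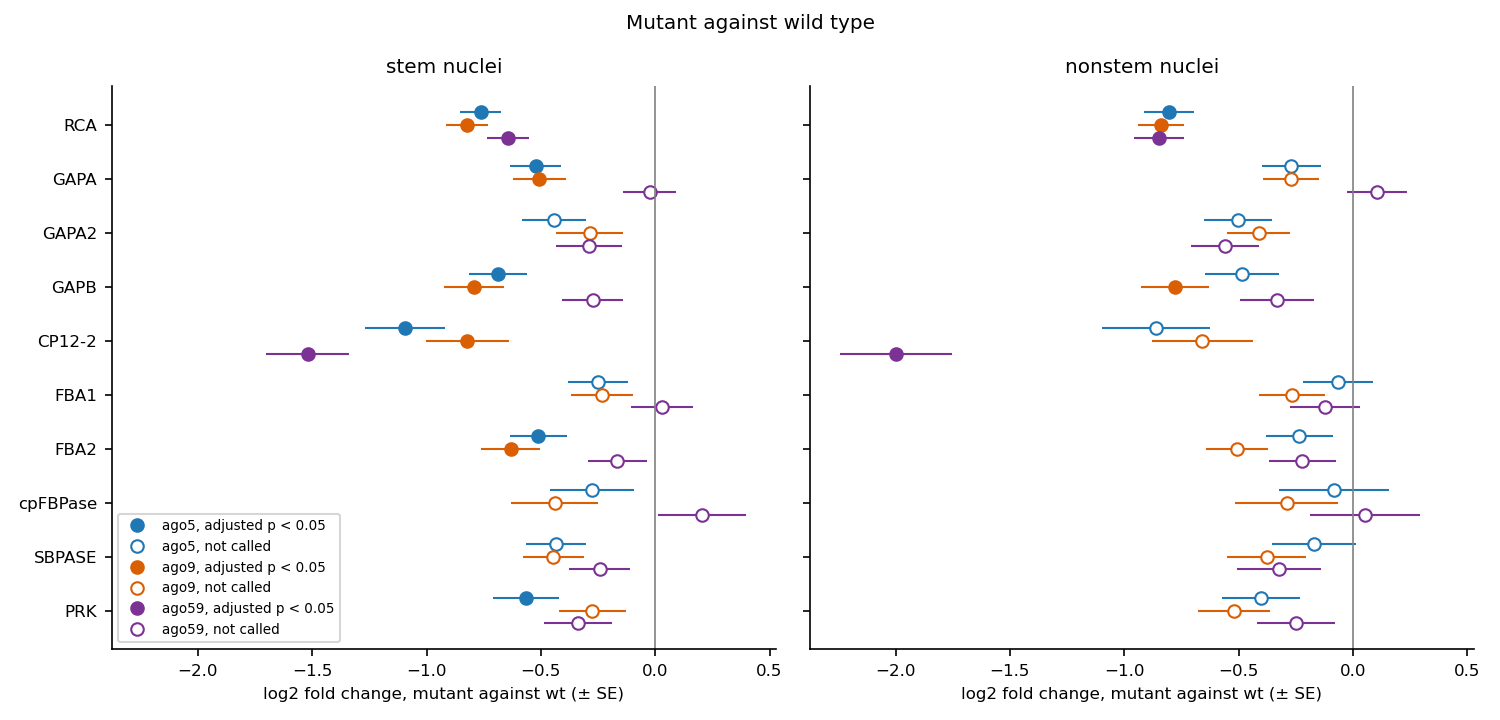
Log2 fold change of each gene (y axis) in ago5, ago9 and ago59 against wt (x axis, ± SE), in stem (left) and nonstem nuclei (right), filled where called. RCA is called in all 6 comparisons, CP12-2 reaches -1.52 and -2.00 in ago59, and most other values are less negative in ago59 than in the single mutants in stem nuclei.

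The nonstem nuclei, with 3 or 4 libraries a group, gave fewer calls. RCA fell in all 3 genotypes, GAPB in ago9 and CP12-2 in ago59. That is 1 of 10 in ago5 (0.267% of 18334 features lower, 0.115% higher), 2 of 10 in ago9 (0.185% lower, 0.06% higher) and 2 of 10 in ago59 (0.862% lower, 0.338% higher). The median log2 change of the 10 genes was -0.34, -0.46 and -0.29, against 0.00, 0.01 and 0.01 for all features. A DESeq2 Wald test, which called 268 and 237 of all features in ago5 and ago9 where edgeR called 70 and 45, called 3 and 6 of 10.

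RCA in nonstem nuclei was at 4499, 4601 and 4658 CPM in wt. It was at 2777, 2784 and 3074.7 CPM in ago5, at 2713, 2759, 2885 and 2978 in ago9, and at 2598, 2839.6 and 2907 in ago59. The lowest wild-type library was above the highest mutant library. The log2 changes were -0.81 ± 0.11 (adjusted p = 0.000319), -0.84 ± 0.10 (adjusted p = 5.85e-05) and -0.85 ± 0.11 (adjusted p = 6.36e-05), and all 3 were called in every fit that left out 1 library.

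CP12-2 in nonstem nuclei was at 287, 299.5 and 308 CPM in wt, 148, 176 and 216 in ago5, 176, 213, 219.9 and 232 in ago9, and 50.5, 93.3 and 102 in ago59. No mutant library reached the wild-type range, and the ago59 libraries were below those of both single mutants. The log2 change in ago59 was -2.00 ± 0.25 (adjusted p = 4.09e-05), and the mean CPM fell by 72.5%. In ago5 it was -0.86 ± 0.24 (adjusted p = 0.159) and in ago9 -0.66 ± 0.22 (adjusted p = 0.347).

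GAPB in nonstem nuclei was at 1146, 1268 and 1276 CPM in wt and 613, 732, 898 and 956 in ago9, and its log2 change was -0.78 ± 0.15 (adjusted p = 0.0205). That call was lost in 5 of 7 fits that left out 1 library (each wt replicate and ago9 replicates 1 and 3, adjusted p 0.0746 to 0.128) and with library totals alone (adjusted p = 0.144). GAPA was at 1199.9, 1222 and 1346 CPM in wt and 1417, 1442 and 1563 in ago59, so the double mutant libraries were higher in CPM, but the log2 change under TMM was 0.10 ± 0.13 (adjusted p = 0.896). GAPA2 in ago59 was at 952, 1061 and 1132 CPM against 1319.7, 1462 and 1474 in wt, with a log2 change of -0.56 ± 0.15 (adjusted p = 0.0667), called by 4 of 8 other settings. The other genes of the nonstem comparisons ranged from -0.52 (PRK in ago9) to 0.05 (cpFBPase in ago59), none of them called.

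Whether a mutant effect differed between stem and nonstem nuclei was tested as an interaction. In all 3 genotypes 0 of 10 genes and 0% of 20753 features were called, while 999 (ago5), 794 (ago9) and 938 (ago59) features had an unadjusted p under 0.05, and a DESeq2 Wald test called 20, 7 and 11 features, 0 of them among the 10. For RCA the stem effect minus the nonstem effect was 0.02 ± 0.15, -0.00 ± 0.14 and 0.19 ± 0.15 on the log2 scale. For CP12-2 in ago59 it was 0.47 ± 0.31, so the changes of -2.00 in nonstem and -1.52 in stem nuclei are not shown to differ.

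The double mutant was also set against each single mutant. In stem nuclei GAPA was higher in ago59 than in ago5 by 0.50 ± 0.10 (adjusted p = 0.0227), the only 1 of 10 called, where 0.0751% of features were higher and 0.123% lower. Against ago9, 2 of 10 were higher, GAPA by 0.48 ± 0.11 (adjusted p = 0.0242) and GAPB by 0.52 ± 0.12 (adjusted p = 0.0368), and 1 was lower, CP12-2 at -0.70 ± 0.17 (adjusted p = 0.0484), where 0.118% were higher and 0.29% lower. These calls were fragile: GAPA was lost in 3 of 15 fits that left out 1 library (ago59 replicate 3, ago5 replicates 6 and 8) and in 4 of 14 (ago59 replicate 3, ago9 replicates 1, 3 and 7), GAPB in 10 of 14 and CP12-2 in 11 of 14, with adjusted p up to 0.139, and with library totals alone GAPB (adjusted p = 0.0983) and CP12-2 (adjusted p = 0.0537) were not called against ago9.

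In nonstem nuclei CP12-2 was lower in ago59 than in ago9 by a log2 difference of -1.34 ± 0.23 (adjusted p = 0.00909), the only 1 of 10 called, with 0.191% of features called. That call was lost without ago59 replicate 1 (adjusted p = 0.0579). Against ago5, 0 of 10 were called, with 0.104% of features called and 1405 features at an unadjusted p under 0.05. CP12-2 stood at -1.14 ± 0.24 there (adjusted p = 0.0685), and 4 of 8 other settings, a DESeq2 Wald test among them (adjusted p = 0.000801), called it. These nonstem comparisons with the single mutants, and the nonstem test of additivity below, were added after the data had been seen.

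If the effects of the single mutants added up on the log2 scale, ago59 would have been lower than it was for 4 of the genes. In stem nuclei the difference between the ago59 change and the sum of both single changes was called higher for 4 of 10, where 0.129% of features were higher and 0.0376% lower. RCA was at -0.64 in ago59 against a sum of -1.59 (difference 0.94 ± 0.12, adjusted p = 1.80e-05). GAPB was at -0.27 against -1.48 (1.21 ± 0.18, adjusted p = 0.000145), GAPA at -0.02 against -1.03 (1.01 ± 0.16, adjusted p = 0.000437) and FBA2 at -0.17 against -1.14 (0.98 ± 0.17, adjusted p = 0.0026). All 4 were called in each of the 27 fits that left out 1 library and with library totals alone. The same wild-type libraries enter this difference, so high wild-type values would lower both single changes and raise the difference. It is therefore not separate from the comparisons with the wild type.

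CP12-2 was not among them: it stood at -1.52 against a sum of -1.92, a difference of 0.40 ± 0.24 (adjusted p = 0.914). The other 5 genes had differences of 0.44 (GAPA2) to 0.92 (cpFBPase), not called by edgeR, though a DESeq2 Wald test called cpFBPase (adjusted p = 0.0409) and SBPASE (adjusted p = 0.0137) among 91 features in all. The median over the 10 genes was 0.78 against -0.04 for all features. In nonstem nuclei RCA was at -0.85 against a sum of -1.65 (0.80 ± 0.15, adjusted p = 0.0418), the only 1 of 10 called, with 0.0382% of features called, and that call was lost in 11 of 13 fits that left out 1 library, at adjusted p up to 0.178, and with library totals alone (adjusted p = 0.197). CP12-2 was there at -2.00 against a sum of -1.52, a difference of -0.48 ± 0.33 (adjusted p = 0.892).

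**Figure D4:**
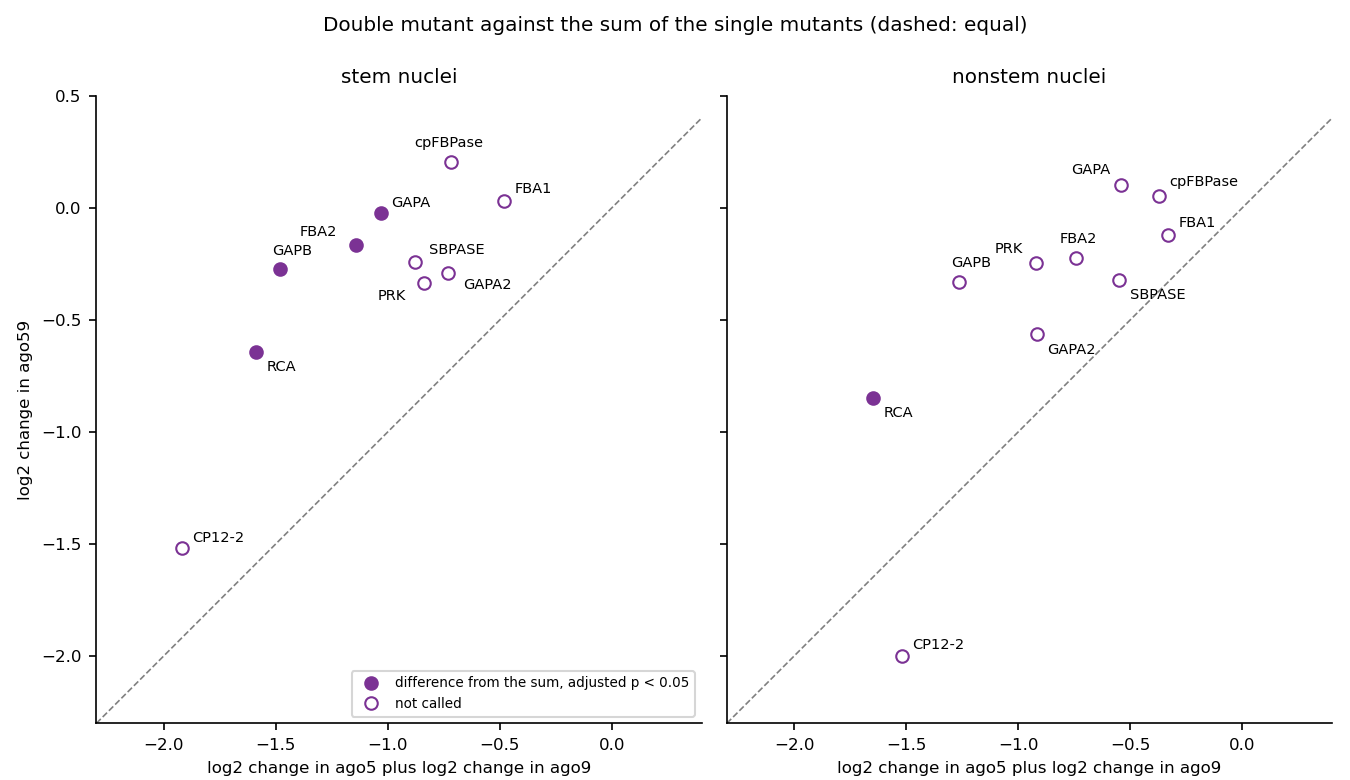
Log2 change in ago59 (y axis) against the sum of the log2 changes in ago5 and ago9 (x axis) for each gene, in stem (left) and nonstem nuclei (right); points are filled where the difference from the sum was called, and the dashed line marks equality. In stem nuclei all 10 genes lie above the line, and in nonstem nuclei CP12-2 lies below it.

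The other genes of the cycle were followed as a list of 16: PGK1, AT1G56190, plastid TPI, FBA3, AT5G64380, TKL1, TKL2, RPE, AT3G04790, CP12-1, CP12-3, the Rubisco small subunit genes RBCS1A, RBCS1B, RBCS2B and RBCS3B, and the plastid gene RBCL. Of these, 4 fell in ago5, 5 in ago9 and 5 in ago59 in stem nuclei, and 4 in each genotype in nonstem nuclei, and none rose. The 4 small subunit genes account for all of the nonstem calls, and RPE, the epimerase, was the further call in ago9 (-0.61 ± 0.14, adjusted p = 0.0182) and ago59 stem nuclei (-0.65 ± 0.14, adjusted p = 0.00285). The median log2 change of the 16 genes was -0.34, -0.58 and -0.51 in stem nuclei (ago5, ago9 and ago59), and RBCL was not called in any of these.

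RBCS1A, the most abundant of them, was at 20770.3, 23162.6 and 23759 CPM in stem nuclei of wt, 9174, 10660.8 and 11587 in ago5, 9921, 11088 and 12356 in ago9, and 8124, 9025 and 9379 in ago59 (lowest, median and highest). No mutant library overlapped the wild type. Its log2 change was -1.25 ± 0.07 (adjusted p = 1.18e-15) in ago5, -1.15 ± 0.07 (adjusted p = 5.78e-14) in ago9 and -1.50 ± 0.07 (adjusted p = 1.16e-17) in ago59, more negative than RCA in each. Like RCA, it was above the sum of the single mutants in ago59 (0.91 ± 0.10, adjusted p = 3.58e-07). In nonstem nuclei this difference was 0.81 ± 0.12 for RBCS1A (adjusted p = 0.00342), where 0.0382% of all features were called. There RBCS1B, RBCS2B and RBCS3B were at 0.09, -0.24 and 0.007, none of them called. The small subunit genes RBCS1B, RBCS2B and RBCS3B are near copies, and reads may have been split between them.

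The lists of genes outside the cycle did not all move in the same direction in these libraries. Of 8 light-harvesting chlorophyll-binding genes, which feed light energy to the photosystems, 6 rose in ago5, 2 in ago9 and 6 in ago59 in stem nuclei, and 2, 0 and 2 in nonstem nuclei, and none fell. Their summed level in stem nuclei was 16809 to 22645 CPM in wt, 21639.9 to 29485 in ago5, 19481 to 28436 in ago9 and 28106 to 34350.1 in ago59. Over the same groups the 10 Calvin cycle genes summed to 9069 ± 886 CPM in wt, 6507 ± 872 in ago5, 6569 ± 635 in ago9 and 7819 ± 469 in ago59, and in nonstem nuclei to 11710.4 ± 312, 9058 ± 345, 8618 ± 622 and 9251 ± 232.

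Of 9 clock genes, LHY fell in ago5 (-0.60 ± 0.15, adjusted p = 0.0228) and ago59 stem nuclei (-0.90 ± 0.15, adjusted p = 0.000144). CCA1 (-0.54 ± 0.14, adjusted p = 0.0205) and PRR9 (-2.91 ± 0.83, adjusted p = 0.0442) also fell in ago59 stem nuclei. In nonstem nuclei LHY fell in ago5 (adjusted p = 0.0109). CCA1 (adjusted p = 0.0299), PRR9 (adjusted p = 0.04055) and GI (adjusted p = 0.0242) fell in ago59 nonstem nuclei. None was called in ago9 in either population. Summed clock levels in stem nuclei were 1107 ± 87.7 CPM in wt, 874 ± 82.0 in ago5, 986 ± 81.9 in ago9 and 760.1 ± 111 in ago59. The labels give no time of harvest, and the part of the time of day, or of the clock genes, in these changes was not tested. Of 3 genes known to rise in sugar starvation, none was called in stem nuclei and ASN1 rose in ago59 nonstem nuclei (2.59 ± 0.65, adjusted p = 0.0485). Their summed level in stem nuclei was 69.8 ± 20.6 CPM in wt, 68.9 ± 28.6 in ago5, 106 ± 34.4 in ago9 and 175 ± 30.0 in ago59. The ago59 libraries (129 to 209 CPM) did not overlap the wild type (46.2 to 98.2 CPM), and the part of sugar state in the changes of the Calvin cycle genes was not tested.

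Few genes close to the cycle by function were called. Of 6 genes of the thioredoxin system and the chaperonin that folds Rubisco, 0 were called in any of the 6 mutant comparisons, and of 10 cytosolic counterparts of the enzymes, cytosolic TPI in ago59 stem nuclei (-0.82 ± 0.21, adjusted p = 0.0214) was the only call. The plastid glycolytic dehydrogenases GAPCP1 and GAPCP2 were not called. The 4 stem markers (2 of them tested in nonstem nuclei) were not called in any mutant, with summed levels in stem nuclei of 121 ± 20.0 CPM in wt, 187 ± 47.4 in ago5, 117 ± 22.2 in ago9 and 165 ± 95.2 in ago59, and the 2 epidermis markers summed to 333 ± 74.8, 490.3 ± 134, 382 ± 93.6 and 376 ± 83.5 CPM in the same order. The part of cell composition in the changes of the Calvin cycle genes was not tested.

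**Figure D5:**
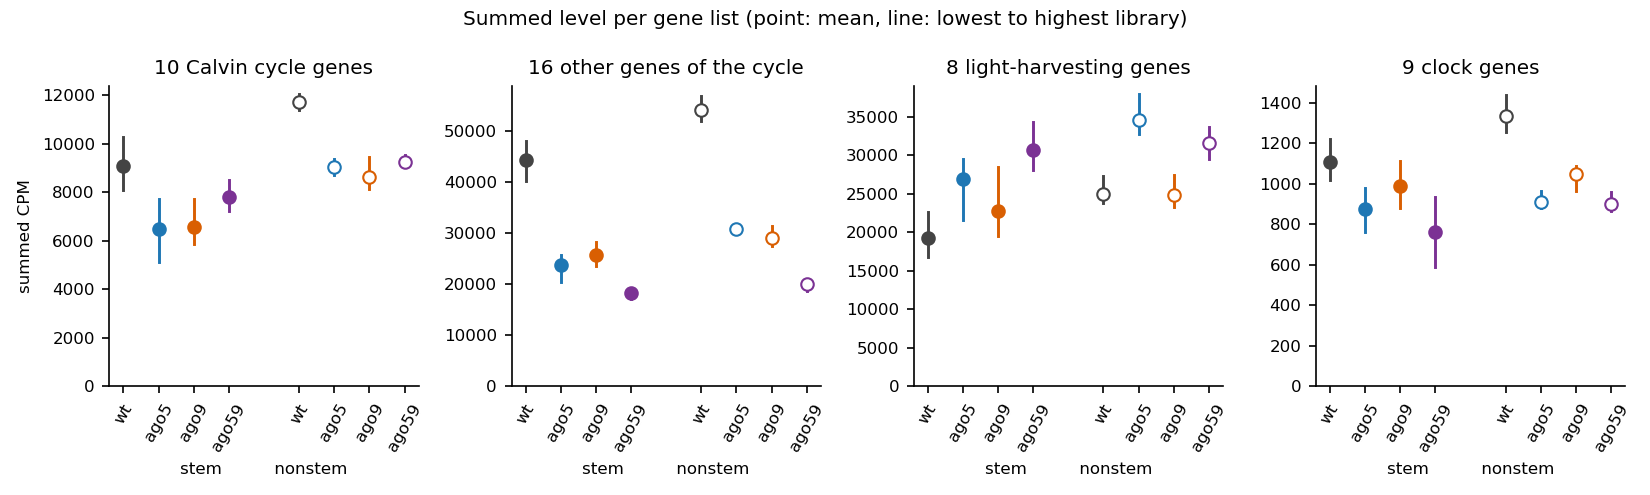
Summed CPM (y axis) of the 10 genes, of 16 other genes of the cycle, of 8 light-harvesting genes and of 9 clock genes, by genotype (x axis) in stem (filled) and nonstem nuclei (open), as mean and range over libraries. The 10 genes fall from 9069 CPM in wt to 6507 in ago5 stem nuclei, while the light-harvesting genes go from 19258 to 26884.

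The 10 genes lay at different distances from their mean pattern over the 8 seedling groups, a mean that each gene is itself part of. SBPASE was nearest, with a root mean square difference of 0.0687 on the log2 scale (group means of log2(CPM + 1), centred, 8 groups), and CP12-2 was farthest at 0.542. GAPA2 (0.0879), FBA2 (0.104) and PRK (0.105) followed SBPASE, then GAPB (0.138), RCA (0.149), FBA1 (0.152), GAPA (0.174) and cpFBPase (0.208). Ranked with all other gene rows compared, SBPASE came at 1, GAPA2 at 5, FBA2 at 16 and PRK at 19, while the other 6 ranked from 72 (GAPB) to 6448 (CP12-2). Among 8089 gene rows outside the 10 with a mean of at least 20 CPM, AT5G06060 (0.0722), LHCA2 (0.0727), PMDH2 (0.0815), AGT (0.0893) and INT1 (0.0897) came nearest. These likenesses rest on groups that share libraries with the comparisons above and are a description.

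In pollen the 10 genes were close to absent, at 0.000154% to 0.000690% of counts in sperm and 0.000360% to 0.000824% in vegetative libraries. No gene passed 5.65 CPM in any pollen library. FBA2 was the main one in sperm, with 259 counts over 12 libraries, and CP12-2 in vegetative nuclei, with 550 counts over 15 libraries. PRK had 5 and 2 counts over all sperm and all vegetative libraries, GAPB 1 and 3, FBA1 5 and 1, SBPASE 7 and 1, cpFBPase 29 and 6, GAPA2 12 and 61, and RCA 25 and 35. GAPA had 0 counts in the 3 wild-type sperm libraries, which allows a level of up to 0.118 CPM (3 counts over these libraries, counting error only).

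In wild-type pollen 2 of 10 genes had enough counts to test between sperm and vegetative nuclei, and both were called, where 91.1% of 10125 features were called. CP12-2 was at 0.120, 0.329 and 0.628 CPM in sperm and 1.90 to 5.65 CPM in vegetative nuclei (n = 4, median 4.71), a log2 difference of -3.51 ± 0.48 (adjusted p = 1.5e-06). FBA2 was at 2.51, 4.06 and 4.77 CPM in sperm and 0.345 to 0.559 CPM in vegetative nuclei (n = 4, median 0.470), a difference of 2.95 ± 0.41 (adjusted p = 2.01e-06). The ranges of sperm and vegetative nuclei did not overlap for either gene. CP12-2 had at most 5 counts in any sperm library and FBA2 at most 5 in any vegetative library, below the filter's minimum count of 10. Each gene thus entered the test through the population where it was high, so the 2 calls are no separate support for a difference. The columns of wild-type pollen were assigned to libraries by elimination, on which all of these wild-type levels depend.

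Few of the genes had enough counts in pollen to be compared between genotypes, and none of those was called. FBA2 in sperm, the only 1 of 10 tested there, was not called in ago5 (-0.74 ± 0.37, adjusted p = 0.993), ago9 (-0.38 ± 0.37, adjusted p = 0.663) or ago59 (-1.24 ± 0.38, adjusted p = 0.42), where 0.0312%, 3.37% and 0.145% of 9623 features were called. In vegetative nuclei 2 of 10 genes were tested and 0 called, where 0.0111% (ago5), 0.1% (ago9) and 1.69% (ago59) of 8973 features were called. CP12-2 stood at -0.32 ± 0.27, -0.09 ± 0.25 and -0.16 ± 0.25, and GAPA, at 0.366 CPM in wt and 1.07, 0.701 and 0.968 CPM in the mutants (group means), at 1.42 ± 0.56 (adjusted p = 0.344), 0.90 ± 0.56 (adjusted p = 0.905) and 1.14 ± 0.54 (adjusted p = 0.243). GAPA had at most 11 counts in any vegetative library, against the filter's minimum of 10. For ago59 it was tested in 7 of the 8 fits that left out 1 library. It entered the test mainly through the higher mutant libraries, so its positive values are no separate support for a rise. At an unadjusted edgeR p under 0.05 stood FBA2 in ago59 sperm and GAPA in ago5 and ago59 vegetative nuclei, beside 432, 1688 and 739 features in sperm and 1023, 531 and 1801 in vegetative nuclei (ago5, ago9 and ago59), and a DESeq2 Wald test called 0 of 10 in each of the 6 comparisons, with 6, 616 and 24 features called in sperm and 33, 27 and 492 in vegetative nuclei.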

How the data were processed

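The deposited table gives expected counts per feature for 67 libraries, made with the TAIR10 genome, and DESeq2 was among the authors' tools, per the submitters' processing notes; the aligner, the counter and the use of strand are not given in the sources used here. Of its columns, 60 matched a library by name, the 7 wild-type pollen columns were assigned by elimination, and 0 were left out. The estimated counts (7.58% of values were not whole) were rounded. Levels are CPM, counts per 1000000 of the library total, with means and SDs over libraries.

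Features passing edgeR's filterByExpr (minimum count 10, minimum total 15) were scaled by TMM and tested with edgeR's quasi-likelihood test (edgeR 4.0.16, limma 3.58.1, R 4.3.3), fitting all genotypes of a population together; the SE is the size of the log2 change divided by the square root of F. P-values were adjusted by Benjamini-Hochberg over all tested features, with a threshold of 0.05. The stem fit was also run on simulated counts whose spread between libraries was set in advance and not taken from these data. That run does not show how the fits behave at the spread of these libraries. Fitted log2 changes of the 10 genes lay below the log2 ratio of mean CPM by a median of 0.125 to 0.150, because of the TMM factors. The alternatives were RLE factors, library totals alone, no filter, a DESeq2 1.42.0 Wald test, a robust fit, a replicate block, the compared groups alone, no organelle or ribosomal RNA genes, and leaving out each library.

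All 10 genes are named whatever their values; other genes are named from lists. The genes and lists were chosen with earlier results of these data known. The comparison by library totals and the 3 nonstem comparisons of ago59 with the single mutants were added after seeing the data. Promoters and gene positions are RefSeq's, build TAIR10.1, read with Biopython 1.88, and all 10 genes were matched by identifier; tables were handled with pandas 2.3.3 and numpy 2.4.6. Depth limits low genes, and counting intervals cover counting error only.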

Additional observations from a re-analysis of the deposited data

Results flagged for a closer look

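Of 56 sets of values, each of 1 gene in 1 group of 4 or more libraries, 5 had a library set apart from the rest by a gap that took up most of the range of the set, where chance gives about 1 in 20. For PRK that range was narrow: it was at 398.8 CPM in ago9 nonstem replicate 2, with the others at 385 to 387 CPM. GAPA2 was at 1301 CPM in ago9 stem replicate 6, with the others at 666 to 934 CPM. cpFBPase was at 208 CPM in wt stem replicate 5, with the others at 112 to 136 CPM. CP12-2 was at 102 CPM in ago9 stem replicate 5, with the others at 155 to 183 CPM, and FBA2 was at 776 CPM in ago59 stem replicate 5, with the others at 845 to 889 CPM.

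The effect of the ago5 mutation differed by whether ago9 was mutated too, by the test of that difference in edgeR, which is the same contrast as the departure from additivity. In stem nuclei the effect in the ago9 background minus that in the wild type was 0.94 on the log2 scale for RCA (adjusted p = 1.80e-05), 1.01 for GAPA (adjusted p = 0.000437), 1.21 for GAPB (adjusted p = 0.000145) and 0.98 for FBA2 (adjusted p = 0.0026). In nonstem nuclei it was 0.80 for RCA (adjusted p = 0.0418). That call was made in only 2 of 13 fits that left out 1 library, and was lost with library totals alone.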

How the results depend on the processing

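Over the 10 genes in the seedling comparisons with the wild type, stem against nonstem and stem additivity, and over the called genes of the other comparisons, 896 values under alternatives (leaving out 1 library counted as its lowest and highest value) kept direction and side of the threshold, 37 lost and 18 gained a call, and 10 changed sign, none of them called. The cause of the changes below was not tested. The number of genes called changed by over 1.5 times as follows. With library totals alone it was 3 in ago5 stem (6 with TMM), 2 in ago9 stem (5), 1 in ago9 nonstem (2), 1 for ago59 against ago9 in stem (3) and 0 for additivity in nonstem (1). Of all features that scaling called 249 (248 with TMM), 94 (125), 37 (45), 62 (76) and 4 (7) in the same order. With a DESeq2 Wald test it was 1 for stem against nonstem in the wild type (0 in edgeR), 3 in ago5 nonstem (1), 6 in ago9 nonstem (2), 2 and 5 for ago59 against ago5 and ago9 in stem (1 and 3), 1 and 2 for the same in nonstem (0 and 1), and 3 for nonstem additivity (1). Without organelle and ribosomal RNA genes it was 1 for stem against nonstem in the wild type and 1 for ago59 against ago5 in nonstem, which was also 1 with a robust fit and 1 with no filter. Of all features 42 (31 as reported) were called for the former, and 29, 34 and 93 (19) for the latter. Nonstem additivity gave 2 with no filter and 0 with RLE factors, and ago59 against ago5 in stem gave 0 from the compared groups alone. Of all features these settings called 60 and 6 (7 as reported), and 19 (37). Smaller changes with DESeq2 were 8 in ago5 stem, 6 in ago9 stem, 6 for stem additivity (4) and 3 in ago59 nonstem (2). Of all features it called 515 (248), 316 (125), 91 (31) and 549 (220) there. With no filter the number of genes was 5, 4 and 8 in ago5 stem, ago9 stem and stem against nonstem over genotypes (9), with 469, 145 and 1571 (1439) of all features called. In ago59 nonstem it was 3 with no filter, a robust fit or no organelle genes, with 352, 277 and 252 of all features called. A robust fit and the fit with no organelle genes gave 4 for ago59 against ago9 in stem, and the compared groups alone gave 2 there and 5 in ago5 stem. Of all features these fits called 86, 78 and 77 (76 as reported) for the former and 160 (248) in ago5 stem. Sperm against vegetative nuclei in wild-type pollen (2) gave 3 with no filter and from all pollen groups together, as did the mutant genotypes in place of the wild type.

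Same-numbered libraries did not deviate together (mean correlation -0.018 to 0.131 over the sets of groups), so the number is not taken as a pairing. A replicate block gave 3 in ago9 stem, 5 in ago5 stem, 8 for stem against nonstem over genotypes, 0 and 1 for ago59 against ago5 and ago9 in stem, and 0 for nonstem additivity, and left the other counts as they were. Of all features the block called 87 (125 without it), 173 (248), 593 (1439), 29 and 70 (37 and 76), and 5 (7) in the same order.

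Leaving out 1 library gave 3 to 5 in ago9 stem, 4 to 7 in ago5 stem, 1 to 2 in ago9 nonstem, 0 to 2 and 0 to 3 for ago59 against ago5 and ago9 in stem, 0 to 1 for ago59 against ago9 in nonstem and 0 to 1 for nonstem additivity. Among seedling changes from the wild type, those that changed sign were GAPA in ago59 stem (0.12 with library totals, 0.0070 with no filter, -0.080 to 0.019 leaving out 1 library), FBA1 in ago59 stem (-0.00079 to 0.10), cpFBPase in ago5 nonstem (0.046 with library totals, -0.17 to 0.018), FBA1 in ago5 nonstem (0.066 with library totals, -0.15 to 0.0062), cpFBPase in ago59 nonstem (-0.14 to 0.23) and FBA1 in ago59 nonstem (0.0045 with library totals). CP12-2 in vegetative nuclei also crossed 0 (-0.17 to 0.086 over the other settings in ago59, -0.27 to 0.042 leaving out 1 library in ago9), as did uncalled differences of ago59 from the single mutants, such as PRK against ago9 in stem (-0.13 to 0.079 leaving out 1 library) and FBA1 against ago5 in nonstem (-0.12 to 0.038 likewise), and uncalled differences between a mutation's effect in stem and in nonstem nuclei. Low counts limit the pollen values, where 2 of 10 genes or fewer could be tested.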

Other observations

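Other genes of the cycle were present in pollen. In the wild type, 11 of 16 had enough counts to test between sperm and vegetative nuclei, where 91.1% of features were called, and 6 were higher in sperm and 5 lower (edgeR quasi-likelihood test, Benjamini-Hochberg adjustment). The log2 difference, sperm minus vegetative, was 6.63 ± 0.44 for CP12-3, another CP12 gene (adjusted p = 6.56e-11), 6.24 ± 0.18 for AT1G56190 (adjusted p = 1.41e-15) and 6.13 ± 0.28 for AT5G64380 (adjusted p = 2.86e-13). TKL2 and TKL1, transketolases, were lower at -2.18 ± 0.45 (adjusted p = 0.000186) and -1.97 ± 0.58 (adjusted p = 0.00416), as were PGK1 (-1.86), FBA3 (-1.61) and RPE (-1.06). CP12-3, AT5G64380, RBCS2B and AT3G04790 had too few counts for the fit of vegetative nuclei alone, and PGK1 and TKL1 for that of sperm. These genes entered the test through the population where they were higher, so their calls are no separate support for a difference.

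Of 10 cytosolic counterparts, 8 were tested, of which 2 were higher in sperm and 4 lower. The cytosolic aldolases FBA5 and FBA7 were lower at -5.12 ± 0.41 (adjusted p = 1.04e-09) and -4.09 ± 0.25 (adjusted p = 2.33e-11), and cytosolic TPI was higher by 2.72 ± 0.38 (adjusted p = 1.89e-06). FBA5 had too few counts for the fit of sperm alone and entered this test through vegetative nuclei, where it was higher. Vegetative markers summed to 7427 ± 450.0 CPM in the 3 wild-type sperm libraries and 35278 ± 2483 CPM in the 4 vegetative libraries, and their part in these values was not tested. All of these values rest on columns assigned by elimination.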
